A study of Mus musculus with 10 samples.

Results

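The genes described here are 9 complement components measured in mouse kidney: C1qa, C1qb and C1qc, C1ra and C1s1, C4b, C3, Cfb and C8a. They were taken from a fixed list of names, with no measured value in the rule, and their versioned Ensembl identifiers were matched to mouse symbols among 46517 counted genes. The list was chosen with earlier results of these data known, so counts of members called are not a blind comparison with all genes. All 9 of the 9 had enough reads to be tested. Complement is a set of plasma proteins, cell-surface regulators and receptors that mark microbes and damaged cells. C1q, built from the products of C1qa, C1qb and C1qc, recognises bound antibody and dying cells in the classical pathway and activates the proteases C1r and C1s, which cleave C4. All pathways meet at C3. Factor B, from Cfb, forms the convertase of the alternative pathway that amplifies C3 cleavage, and the alpha chain of C8 belongs to the membrane attack complex. The liver makes most circulating complement, macrophages are a main source of C1q, and kidney tubule cells can make C3 themselves.

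The study expressed variants of the human gene APOL1 in podocytes, the epithelial cells of the glomerular filter. The labels give 4 genotypes of kidney. There were 2 libraries with the G1 risk allele of APOL1, 2 with the G2 risk allele, 3 of the genotype wild type (single mutant) and 3 called Control. The words single mutant are not explained in the labels, and neither the promoter, the strain, the sex nor the age is stated there. Reads of whole-kidney poly(A) RNA were counted per mouse gene, and the human transcript was not analysed here. Whether every library is its own mouse is not stated in the labels, and the p-values rest on the spread among libraries, which may be technical. Levels are in CPM, counts per 1000000 on library sizes scaled by the TMM method, and changes are log2 fold changes with standard errors (SE). The words rose and fell are kept for genes with an adjusted p under 0.05 (Benjamini-Hochberg) in edgeR's quasi-likelihood test over 17823 genes.

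Libraries held 27596391 to 34815153 counts. Markers of the proximal tubule (Slc34a1, at least 1251 CPM), the thick ascending limb (Umod), the collecting duct (Aqp2) and the podocyte (Nphs1, at least 4.46 CPM) were present in all 10 libraries. Some libraries stood apart. G1 replicate 2 held 359.7 CPM of Xist, the transcript of the inactive X chromosome, against at most 1.13 CPM in any other library. The Y-linked genes Ddx3y, Uty, Kdm5d and Eif2s3y had 8, 3, 7 and 21 counts there, and at least 1113, 615, 398 and 1135 in every other library. By these transcripts G1 replicate 2 was female and the other libraries male. Sex was therefore unbalanced in every comparison with G1, and it was not in the fit. Wild type (single mutant) replicate 1 stood apart in 6 transcripts of liver cells, Alb, Apoa1, Apoa2, Ahsg, Cps1 and Tat. Their sum was 269.9 CPM there and 1.06 to 27.3 CPM in the other 9 libraries. These 6 are a part of 13 hepatocyte markers. The sum of all 13, carried mostly by Cyp2e1, did not set that library apart. It was 2545 CPM there, 2877 in wild type (single mutant) replicate 2 and 2641 in Control replicate 3. Wild type (single mutant) replicate 3 differed in the C1r and C1s genes, and Control replicate 2 held 1903 CPM of Cd74, against 314 and 180.1 CPM in the other 2 Control libraries.

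With either risk allele, C3 and the C1q chains were higher than in Control, while the other members split between the alleles. In G1 against Control, C3 and all 3 C1q genes rose and C8a fell, 5 of 9 members, where 37.3% of all genes tested were called (19.5% rose and 17.9% fell). In G2 against Control, C3, C4b and the C1q genes rose and Cfb fell, 6 of 9 members, where 21.6% of all genes were called (12.7% rose and 8.86% fell). These shares of all genes depended on single libraries: the G1 share was 22.3% without G1 replicate 1 and 18.4% without G1 replicate 2, and the G2 share was 10.6% without G2 replicate 1. The members' median log2 fold change was 0.47 in G1 and 1.50 in G2, and that of all genes was -0.02 in G1 and 0.04 in G2. Library by library, 6 members lay above every Control library and 1 lay below in each allele. The share of all genes lying wholly above Control was 32.3% for G1 and 27.5% for G2, and wholly below 32% for G1 and 22.6% for G2. For the mean of both alleles, 4 members rose and 2 fell against Control, where 37.3% of all genes were called (19.3% rose and 18% fell). Against wild type (single mutant) 5 rose and 1 fell, where 39.9% were called (20.6% rose and 19.3% fell). All 4 risk-allele libraries lay above all Control libraries for 5 members (20.7% of all genes; 17.7% below) and above all wild type (single mutant) libraries for 7, with 1 below (21.6% of all genes above, 18.4% below). The alleles share the Control libraries, so these counts are not independent of each other.

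**Figure D1:**
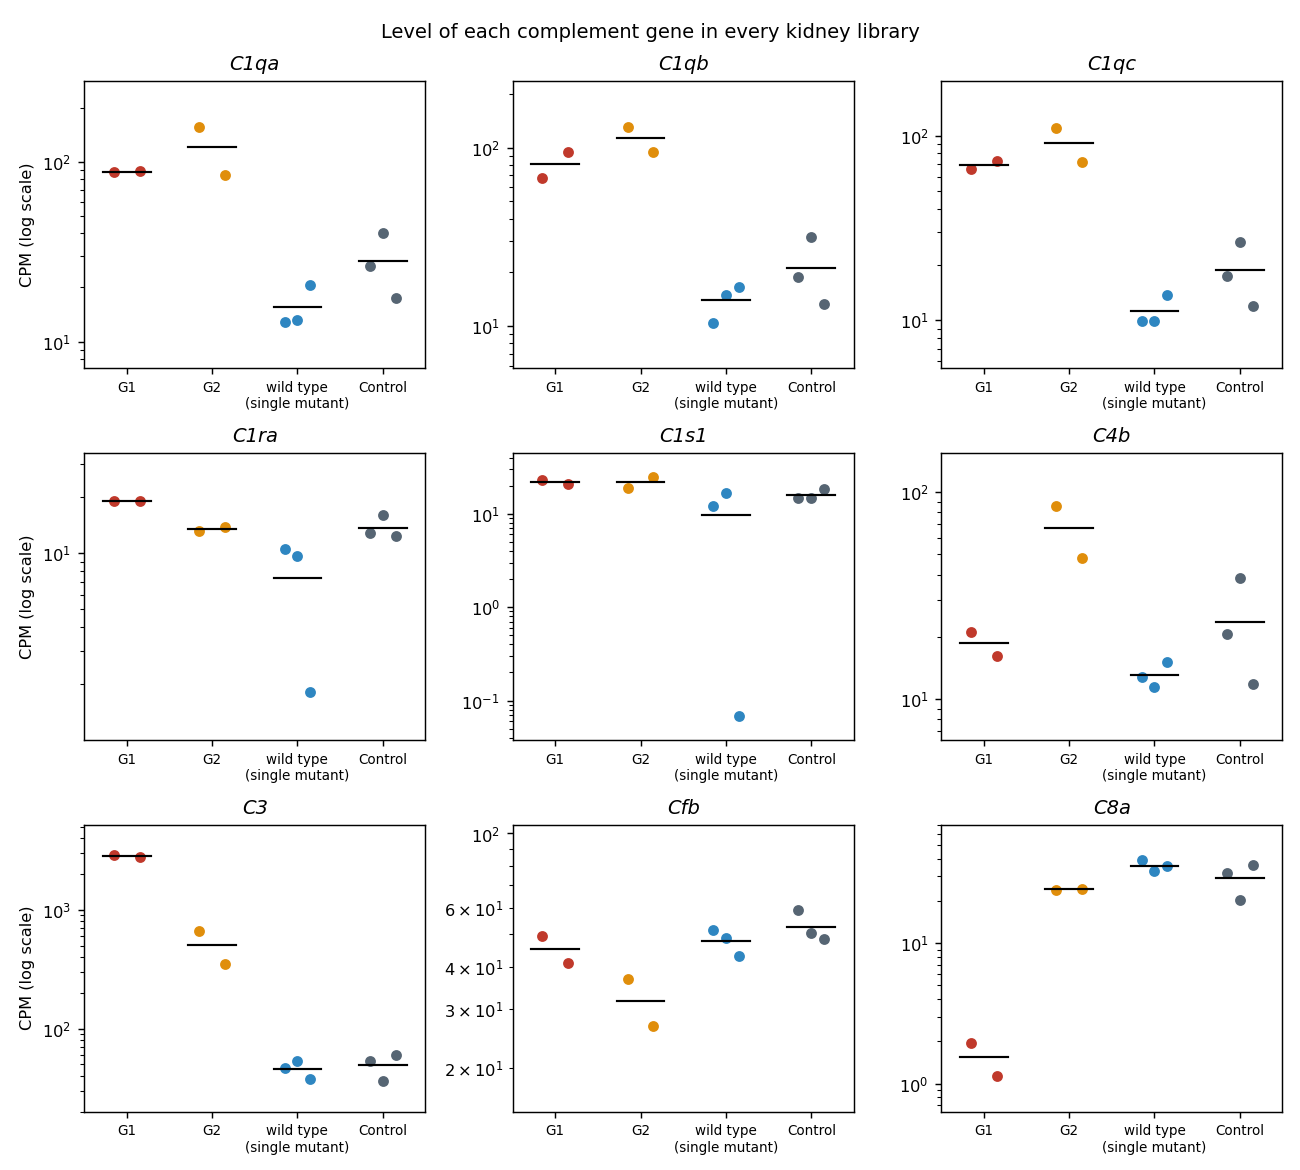
Level of each of the 9 genes in every library, in CPM on a log axis, by genotype; each point is a library and each bar a group mean. C3 lies at 349.9 to 2906 CPM in the G1 and G2 libraries and at 35.9 to 59.4 CPM in the other 6, and C8a lies at 1.13 and 1.94 CPM in G1.

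In wild type (single mutant) against Control, 0 of 9 members were called, and 0% of all genes tested were called by edgeR. Lying below every Control library was 1 member, C1ra, and 0 lay above (3.73% of all genes below, 4.08% above). At an unadjusted p under 0.05 it marked 2 members, C1qa and C1qc, and 724 genes in all. DESeq2 called 14 genes and limma-voom 0, with 0 members called by either. C1qa had a log2 fold change of -0.85 ± 0.34 and C1qc one of -0.74 ± 0.29, each with an adjusted p of 1 in edgeR's quasi-likelihood test. The highest C1q library of these 6 was Control replicate 2.

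**Figure D2:**
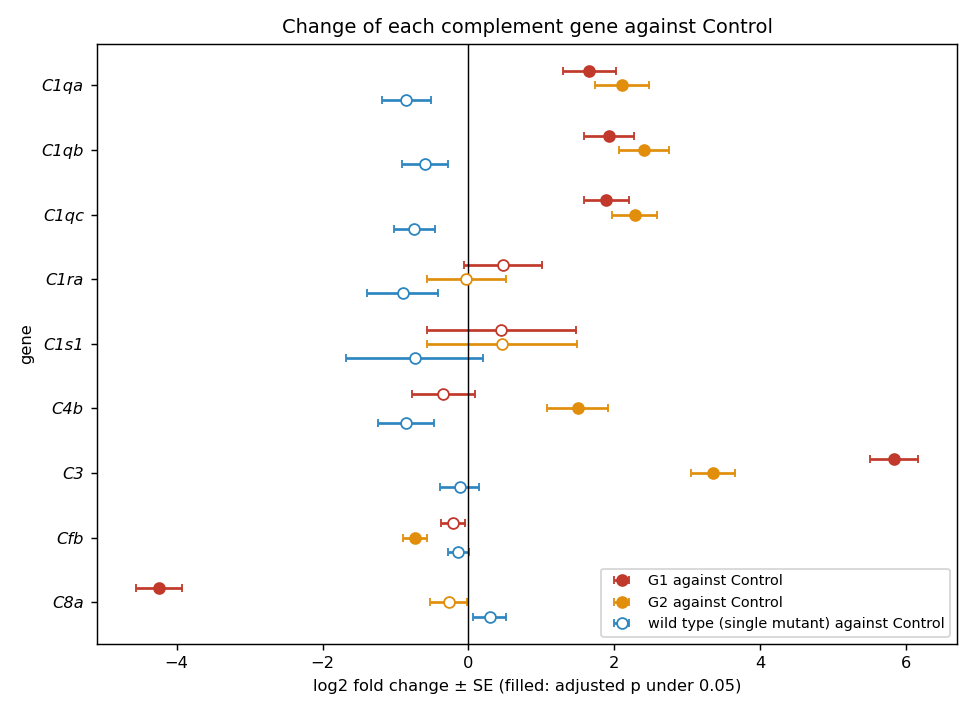
Log2 fold change of each gene against Control for G1 and for G2, with standard errors; filled points passed the adjusted threshold of 0.05. The points of the 2 alleles are farthest apart for C8a (-4.25 in G1, -0.27 in G2) and for C3 (5.84 in G1, 3.36 in G2).

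The 3 C1q genes encode the A, B and C chains of the recognition molecule and lie side by side on chromosome 4 in GRCm38, all on the minus strand: C1qa at 136895917 to 136898803, C1qc at 136889804 to 136893065 and C1qb at 136880129 to 136886187. The promoters of C1qb and C1qc are shown because these neighbours moved together. Each runs from 250 bases before to 50 bases after the start, 5′ to 3′ on the minus strand, from RefSeq on GRCm38.p6 (C1qb chr4:136886151-136886450, C1qc chr4:136892865-136893164). Capitals mark a match to PU.1, a factor of myeloid cells, searched as GAGGAAGT on both strands.
C1qb: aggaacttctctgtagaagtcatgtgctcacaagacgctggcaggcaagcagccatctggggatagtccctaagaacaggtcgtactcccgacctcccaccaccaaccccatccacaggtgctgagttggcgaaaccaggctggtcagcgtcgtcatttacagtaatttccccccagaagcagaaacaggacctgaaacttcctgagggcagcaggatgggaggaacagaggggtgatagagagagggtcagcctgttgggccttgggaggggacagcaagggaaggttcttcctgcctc
C1qc: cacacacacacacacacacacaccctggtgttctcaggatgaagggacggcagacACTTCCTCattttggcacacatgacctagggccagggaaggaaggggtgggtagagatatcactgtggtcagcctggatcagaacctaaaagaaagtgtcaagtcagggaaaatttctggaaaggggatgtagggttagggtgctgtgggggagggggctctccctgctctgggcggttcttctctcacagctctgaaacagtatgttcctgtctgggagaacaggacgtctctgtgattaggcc
The C1qc match lies on the other strand, 195 to 188 bases before the start, and 3.2% of 32851 mouse promoters of this length hold one. No capitals appear in C1qb, where none of the 5 motifs searched had these letters in the window.

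C1qa, the A chain, was at 87.3 and 89.1 CPM in G1, 157 and 84.6 in G2, 12.8, 13.2 and 20.6 in wild type (single mutant), and 26.3, 40.2 and 17.4 in Control. The 2 highest of the other 6 libraries were in Control. C1qb, the B chain, was at 67.8 and 94.5 CPM in G1, 131 and 94.2 in G2, 10.5, 14.9 and 16.7 in wild type (single mutant), and 18.8, 31.6 and 13.4 in Control. C1qc, the C chain, was at 65.5 and 73.2 CPM in G1, 109.6 and 72.2 in G2, 9.96, 9.9 and 13.7 in wild type (single mutant), and 17.4, 26.7 and 11.9 in Control. G2 replicate 1 was the highest of the 10 libraries for each chain, and for each chain all 4 risk-allele libraries lay above the other 6.

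Against Control, C1qa rose by 1.66 ± 0.36 in G1 and 2.11 ± 0.37 in G2 on the log2 scale, with adjusted p of 0.0073 and 0.00495 in edgeR's quasi-likelihood test. C1qb rose 3.82-fold in G1 and 5.29-fold in G2, and C1qc 3.71-fold in G1 and 4.86-fold in G2. All 6 of these calls held under each of 16 alternatives. The chains kept nearly fixed proportions: the CPM ratio of C1qa to C1qb ran from 0.88 to 1.40 over the 10 libraries and that of C1qc to C1qb from 0.663 to 0.966, while their summed CPM ran from 33.2 to 397. G1 and G2 overlapped for each chain. Their log2 differences, G1 against G2, were -0.45 ± 0.40, -0.47 ± 0.38 and -0.39 ± 0.34 for C1qa, C1qb and C1qc, with adjusted p of 0.54, 0.487 and 0.527 in edgeR's quasi-likelihood test.

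Macrophage markers moved with the C1q genes. Of 12 markers, 9 rose in G1 against Control and 10 in G2, with 0 falling in either, where 19.5% of all genes rose in G1 and 12.7% in G2. The summed level of 11 of them, without Cd74, was 559 and 759 CPM in G1, 793 and 523 in G2, 129 to 149 in wild type (single mutant) and 156 to 160.2 in Control. With Cd74, a chaperone of MHC class II, the sum overlapped: it was 1446 to 2620 CPM in the risk-allele libraries and 340 to 2061 CPM in Control, through Control replicate 2. In whole tissue, more macrophages and more C1q RNA per macrophage cannot be told apart, as holds for every gene here. The part of the markers in the C1q result was not tested.

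**Figure D3:**
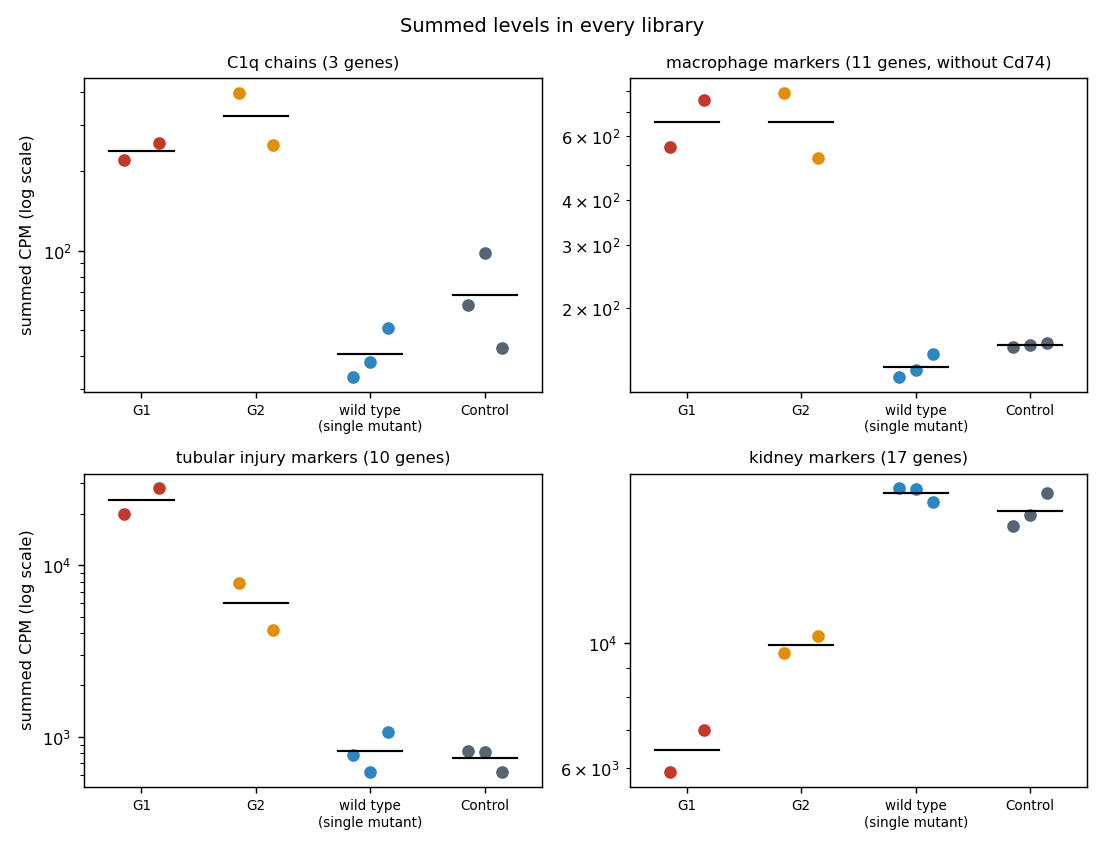
Summed CPM in every library, on log axes, of the 3 C1q chains, 11 macrophage markers, 10 tubular injury markers and 17 kidney markers, by genotype. The sums of the C1q chains, the macrophage markers and the injury markers do not overlap between the 4 risk-allele libraries and the other 6. The kidney sum, carried mostly by Slc34a1 and Umod, is 5887 to 10269 CPM in G1 and G2, against 16095 to 18797 CPM in the others.

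C1ra and C1s1 encode the proteases that C1q activates. They lie next to each other on chromosome 6 in GRCm38, C1ra at 124512405 to 124523443 on the plus strand and C1s1 at 124530345 to 124542359 on the minus strand. Each has a close copy in the mouse genome, C1rb and C1s2. Of all 100-base stretches of C1ra transcript, 34.5% also occur in C1rb, and 6.87% of those of C1s1 occur in C1s2, so reads of these pairs may be split or dropped by the counting, and their values are uncertain. In addition, 18.4% of the exon bases of C1s1 are shared with the antisense gene Gm16567, and no strand setting was stated.

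C1ra was at 19 and 18.9 CPM in G1, 13.1 and 13.7 in G2, 10.5, 9.61 and 1.81 in wild type (single mutant), and 12.8, 15.9 and 12.3 in Control. C1s1 was at 23 and 20.6 CPM in G1, 18.8 and 25 in G2, 12, 16.7 and 0.0681 in wild type (single mutant), and 14.8, 14.6 and 18.4 in Control. Wild type (single mutant) replicate 3 was the lowest for both genes, and its C1s1 value rests on 2 counts. G1 lay above every Control library for both genes, and G2 for C1s1. Neither gene was called in any of the 6 comparisons. Their log2 fold changes against Control were 0.47 ± 0.53 and 0.45 ± 1.02 in G1, and -0.03 ± 0.54 and 0.46 ± 1.03 in G2, for C1ra and C1s1.

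These standard errors rested on 1 library. Without wild type (single mutant) replicate 3, C1ra rose in G1 against Control by 0.47 ± 0.14 on the log2 scale (edgeR quasi-likelihood test, adjusted p = 0.0326; range over 16 alternatives 0.0326 to 0.667). Without it, C1ra also rose for both alleles against wild type (single mutant), by 0.66, and C1s1 by 0.60, with edgeR adjusted p of 0.00801 and 0.0359. Over the 16 alternatives these adjusted p ran from 0.00801 to 0.158 for C1ra and from 0.0359 to 0.435 for C1s1.

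The copy C1rb showed a different split of libraries. It was at 10.7 and 12.1 CPM in G1, 12.8 and 10.2 in G2, 0.479, 0.365 and 11.3 in wild type (single mutant), and 0.625, 0.724 and 0.836 in Control. The 4 risk-allele libraries and wild type (single mutant) replicate 3 were high and the other 5 were low. C1rb made up 35.9% to 49.4% of the counts of C1rb and C1ra together in G1 and G2, 86.3% in wild type (single mutant) replicate 3 (95% Clopper-Pearson interval 82.4% to 89.5%), and 3.66% to 6.34% in the other 5 libraries. Against Control C1rb rose by 3.97 ± 1.21 in G1 and 3.98 ± 1.21 in G2, with edgeR adjusted p of 0.03 and 0.0453, and its value in wild type (single mutant) was 2.48 ± 1.12 with an adjusted p of 1. C1s2 was low throughout, at 2.88 and 2.42 CPM in G1, 2.5 and 0.224 in G2, 0.341 to 0.958 in wild type (single mutant) and 1.21 to 1.59 in Control.

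**Figure D4:**
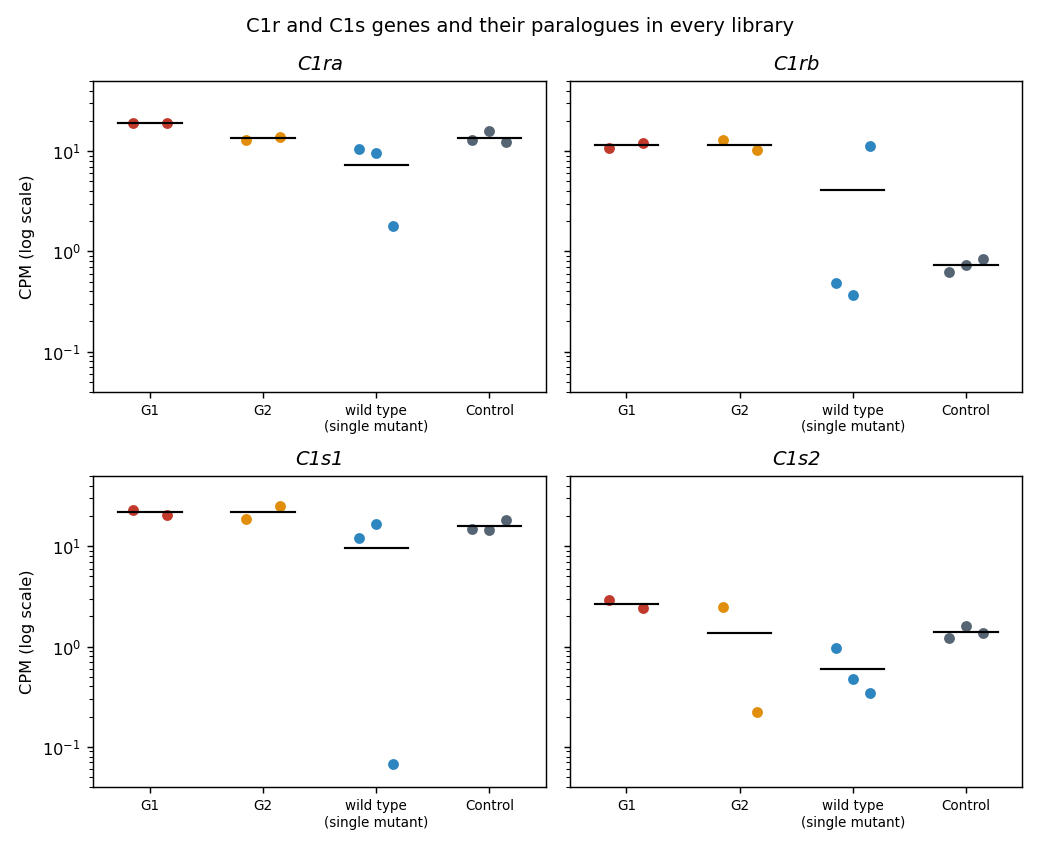
Levels of C1ra, C1rb, C1s1 and C1s2 in every library, in CPM on log axes, by genotype; each point is a library. The lowest C1ra and C1s1 points and the highest C1rb point outside G1 and G2 belong to wild type (single mutant) replicate 3 (1.81, 0.0681 and 11.3 CPM).

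C4b encodes complement C4, the substrate of C1s, and lies at 34728380 to 34743882 on chromosome 17 (GRCm38, minus strand). It was at 21.1 and 16.2 CPM in G1, 86 and 48.1 in G2, 12.8, 11.4 and 15.1 in wild type (single mutant), and 20.7, 38.5 and 11.9 in Control. Both G2 libraries lay above all the others, and G1 lay within Control. In G2, C4b rose by 1.50 ± 0.42 on the log2 scale (edgeR quasi-likelihood test, adjusted p = 0.034). That call was lost in the fit of G2 and Control alone, and without any 1 of 6 libraries: G1 replicates 1 and 2, G2 replicate 1, wild type (single mutant) replicate 1, and Control replicates 1 and 3. Its adjusted p ran from 0.00351 to 0.229 over 16 alternatives. In G1 the log2 fold change was -0.35 ± 0.43 with an adjusted p of 0.556 in edgeR. Against wild type (single mutant), the mean of both alleles was higher by 1.43 ± 0.37 (edgeR adjusted p = 0.015). That call was lost without wild type (single mutant) replicate 1 or 2, and its adjusted p ran from 0.000329 to 0.0577 over 16 alternatives.

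C4b shares 15.2% of its 100-base stretches with C4a, a neighbouring copy, whose protein in mouse is known as sex-limited protein. C4a was at 0.682 and 1.39 CPM in G1, 3.93 and 1.74 in G2, 27.5, 33 and 12.4 in wild type (single mutant), and 15.8, 7.46 and 34.6 in Control. It fell in G1, by 4.21 ± 0.80, and in G2, by 2.77 ± 0.73, on the log2 scale, with edgeR adjusted p of 0.00377 and 0.0275. C4a made up 3.13% to 7.88% of the counts of both genes in G1 and G2, 45.0% to 74.3% in wild type (single mutant) and 16.2% to 74.4% in Control. Both G1 libraries, including replicate 2 with its high Xist, were low for C4a.

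C3, the component that all pathways cleave, lies at 57203970 to 57228136 on chromosome 17 (GRCm38, minus strand) and had the largest change of the 9 genes in either allele. Its promoter is shown for that reason (RefSeq, GRCm38.p6, chr17:57228087-57228386, minus strand, 250 bases before to 50 after the start). Capitals mark a match to C/EBP, a factor family of acute phase genes, searched as TTGCNNAA.
C3: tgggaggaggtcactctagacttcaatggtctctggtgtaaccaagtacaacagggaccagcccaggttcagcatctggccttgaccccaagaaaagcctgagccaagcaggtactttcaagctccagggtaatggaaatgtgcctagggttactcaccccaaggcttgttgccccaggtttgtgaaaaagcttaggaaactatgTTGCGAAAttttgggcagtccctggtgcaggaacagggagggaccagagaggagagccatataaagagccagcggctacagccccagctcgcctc
The match lies 45 to 38 bases before the start, and 10.8% of promoters hold one. C3 had no match to NF-kB, spelled GGGA, any 2 bases and TTCC (1.47% of promoters), or to the interferon response element, spelled GAAA, any 2 bases and GAAA (3.44%).

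C3 was at 2906 and 2769.5 CPM in G1, 668 and 349.9 in G2, 46.6, 53 and 37.3 in wild type (single mutant), and 53.6, 35.9 and 59.4 in Control. The 4 genotypes fell into 3 levels with no overlap between G1, G2 and the rest, while wild type (single mutant) and Control overlapped. Per kilobase of exon, C3 ranked 43 and 49 among 17760 genes in the G1 libraries, 375 and 673 in G2, 4433 to 5571 in wild type (single mutant) and 4050 to 5703 in Control. Against Control it rose by 5.84 ± 0.33 in G1 and 3.36 ± 0.30 in G2 on the log2 scale, that is 57.2-fold and 10.3-fold (edgeR quasi-likelihood test, adjusted p = 2.24e-05 and 0.000536). Both calls held under all 16 alternatives. Over the fits that each left out 1 of the 10 libraries, G1 replicate 2 among them, the G1 value ran from 5.65 to 5.98. The library with the highest sum of the 6 liver transcripts, wild type (single mutant) replicate 1, held 46.6 CPM of C3, within the range of the other 5. The part of liver transcripts in the C3 level was not tested.

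G1 was also higher than G2, by 2.48 ± 0.34 on the log2 scale (edgeR quasi-likelihood test, adjusted p = 0.0106). Without G1 replicate 1 the difference was 2.45 and without G1 replicate 2 it was 2.56, and neither passed. Its adjusted p ran from 1.78e-11 to 0.0689 over 16 alternatives, and 14 of them kept the call. The summed level of 10 markers of injured tubules ran in the same order, carried mostly by Spp1. All 10 rose with each allele, where 19.5% of all genes rose in G1 and 12.7% in G2. Tested directly, G1 against G2, 4 of the 10 were higher in G1 and 6 were not called, where 2.88% of all genes were higher. The sum was 19869 and 28220 CPM in G1, 7908 and 4195 in G2, 621 to 1067 in wild type (single mutant) and 618 to 823 in Control. Spp1 alone was at 17622 and 26086 CPM in G1 and at 6925 and 3419 in G2. The part of injured tubules in the C3 level was not tested.

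Cfb encodes factor B and lies at 34856374 to 34862518 on chromosome 17 (GRCm38, minus strand). It was at 49.6 and 41.2 CPM in G1, 36.7 and 26.6 in G2, 51.7, 48.8 and 43.1 in wild type (single mutant), and 59, 50.4 and 48.4 in Control. The G2 libraries were the lowest 2 of the 10, and G1 overlapped with Control. In G2 it fell by 0.73 ± 0.17 on the log2 scale (edgeR quasi-likelihood test, adjusted p = 0.0144), a call that was lost without G2 replicate 2 (-0.53; adjusted p over 16 alternatives from 0.000575 to 0.0834). In G1 the log2 fold change was -0.21 ± 0.16 with an adjusted p of 0.33 in edgeR. For the mean of both alleles Cfb fell by 0.47 ± 0.13 (edgeR adjusted p = 0.0229, 0.00811 to 0.198 over 16 alternatives), and that call was lost with library totals alone, without G1 replicate 2, without G2 replicate 2 and without Control replicate 1. Scaling by library totals alone gave a G1 value of 0.0795, and moved the median of all genes from -0.02 to 0.27. Of the exon bases of Cfb, 79.5% are shared with the readthrough gene Gm20547, which has 0 counts in all 10 libraries. How reads in shared bases were counted is not given in the sources used here, so the level of Cfb is uncertain.

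Of the other alternative pathway genes, Cfp encodes properdin, which stabilises the convertase. It was at 23 and 43.5 CPM in G1, 25 and 16 in G2, 3.73 to 4.45 in wild type (single mutant), and 3.82 to 6.32 in Control. Cfp rose by 2.82 ± 0.33 in G1 and by 2.12 ± 0.32 in G2 on the log2 scale (edgeR adjusted p = 0.000313 and 0.00296). Cfd, the protease that cleaves factor B, was not called, at -1.39 ± 1.96 in G1 and -0.54 ± 1.89 in G2. Its counts were 1006 and 145 in G1, 42 and 2120 in G2, and 327, 16 and 2679 in Control, so its change is uncertain.

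C8a encodes the alpha chain of C8 and lies at 104815679 to 104876398 on chromosome 4 (GRCm38, minus strand). Its promoter is shown because C8a was the member with the largest fall (RefSeq, GRCm38.p6, chr4:104876349-104876648, minus strand, 250 bases before to 50 after the start). Capitals mark the short motif GTTAAT of HNF1, a factor of liver and proximal tubule.
C8a: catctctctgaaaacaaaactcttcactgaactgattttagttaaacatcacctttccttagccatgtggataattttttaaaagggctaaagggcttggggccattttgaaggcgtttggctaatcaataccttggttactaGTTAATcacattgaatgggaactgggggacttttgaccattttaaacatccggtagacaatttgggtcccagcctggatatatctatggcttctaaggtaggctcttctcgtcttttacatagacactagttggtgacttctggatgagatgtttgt
The match lies 107 to 102 bases before the start, and 7.1% of promoters hold one on either strand.

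C8a was at 1.94 and 1.13 CPM in G1, 24.1 and 24.2 in G2, 38.9, 32.6 and 35.8 in wild type (single mutant), and 31.5, 20.2 and 35.9 in Control. G1 alone was low, and G2 lay within Control. In G1, C8a fell by 4.25 ± 0.32 on the log2 scale, 19-fold lower (edgeR quasi-likelihood test, adjusted p = 4.82e-05), and in G2 its value was -0.27 ± 0.25 with an adjusted p of 0.476 in edgeR. G1 was below G2 by 3.97 ± 0.32 on the log2 scale, written as G1 against G2 -3.97 (edgeR adjusted p = 0.00286). The falls against Control and against G2 held under all 16 alternatives. The fall in G1 was -3.88 without G1 replicate 2, the library with high Xist. The summed level of 17 kidney markers, carried mostly by Slc34a1 and Umod, was lowest in G1, though not every marker followed it. The sum was 5887 and 7008 CPM in G1, 9566 and 10269 in G2, and 16095 to 18797 in the other 6 libraries. Against Control, 8 of the 17 fell in G1, where 17.9% of all genes fell. The other 9 were not called, Umod, Aqp2 and the podocyte genes among them. Tested directly, G1 against G2, 3 of the 17 were lower in G1, 1 was higher (Slc5a12, a lactate transporter gene of the proximal tubule, at 1.92) and 13 were not called. The sum of 6 liver transcripts was 1.18 and 1.06 CPM in G1, 4.77 and 4.01 in G2, 269.9, 18.4 and 27.3 in wild type (single mutant), and 14.8 to 16.4 in Control. In the library with 269.9 CPM of these transcripts C8a was at 38.9 CPM, beside 32.6 and 35.8 CPM in the other 2 of its group. The part of kidney or liver markers in the C8a result was not tested.

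The other terminal genes did not follow 1 direction. C8g, the gamma chain of C8, was at 5.69 and 5.27 CPM in G1, 18.7 and 15.6 in G2, 20.5, 27.8 and 20.4 in wild type (single mutant), and 31.1, 30.7 and 21 in Control. It fell in both alleles, by 2.33 ± 0.23 in G1 and 0.68 ± 0.21 in G2, and was lower in G1 than in G2 (-1.65 ± 0.24, edgeR adjusted p = 0.0113). Hc, the gene of mouse C5, was at 0.393 and 0.353 CPM in G1, 4.94 and 2.84 in G2, 0.292 to 0.821 in wild type (single mutant), and 0.0398 to 0.174 in Control. Hc rose in G2 by 4.95 ± 0.56, was not called in G1 at 1.59 ± 0.60, and was lower in G1 than in G2 (-3.37 ± 0.56, edgeR adjusted p = 0.0156). The Control libraries held 5, 4 and 1 counts of Hc, near the floor, so the sizes against Control are uncertain. C6, which joins C5b in the attack complex, rose by 1.25 in G1 and 1.93 in G2. C9, the pore-forming component, had 3 counts over the G1 libraries, and the ratio of its level to Control was 0.0515 (95% counting interval 0.0103 to 0.158). C9 was highest, at 3.11 CPM, in wild type (single mutant) replicate 1, the library with the highest sum of the 6 liver transcripts.

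The wider complement list held 46 genes beside the members, of which 38 were tested. In G1 against Control 13 rose, 7 fell and 18 were not called, with a median log2 fold change of 0.15, and in G2 15 rose, 3 fell and 20 were not called, with a median of 0.44. Among all genes tested in G1, 19.5% rose and 17.9% fell, while for G2 the shares were 12.7% and 8.86%. The genes of the list that rose include C4bp, which passed the filter through the risk-allele libraries. Without G1 replicate 2 the whole list, members included, had 15 genes called in G1 in place of 25, and without G2 replicate 1 it had 15 in G2 in place of 24. Against wild type (single mutant), 11 rose and 6 fell for the mean of both alleles (20.6% and 19.3% of all genes), and in wild type (single mutant) against Control 0 of 38 were called by edgeR, with 2, Hc and Vtn, at an unadjusted p under 0.05. Lectin pathway genes numbered 6, and 0 rose in either allele while 2 fell with G1 and 1 with G2, too few to be set apart from the shares of all genes. Masp2, the protease that cleaves C4 in that pathway, fell in G1 by 3.86 ± 0.79, and its value in G2 was -1.76 ± 0.68. Colec11, a collectin, fell in G1 by 2.13 ± 0.60 and was at -0.09 in G2. Mbl2, a mannose-binding lectin gene, had 0 counts in both G2 libraries and 34 over the 3 Control libraries, at least 9.86-fold lower against a floor of 3 counts over the group.

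**Figure D5:**
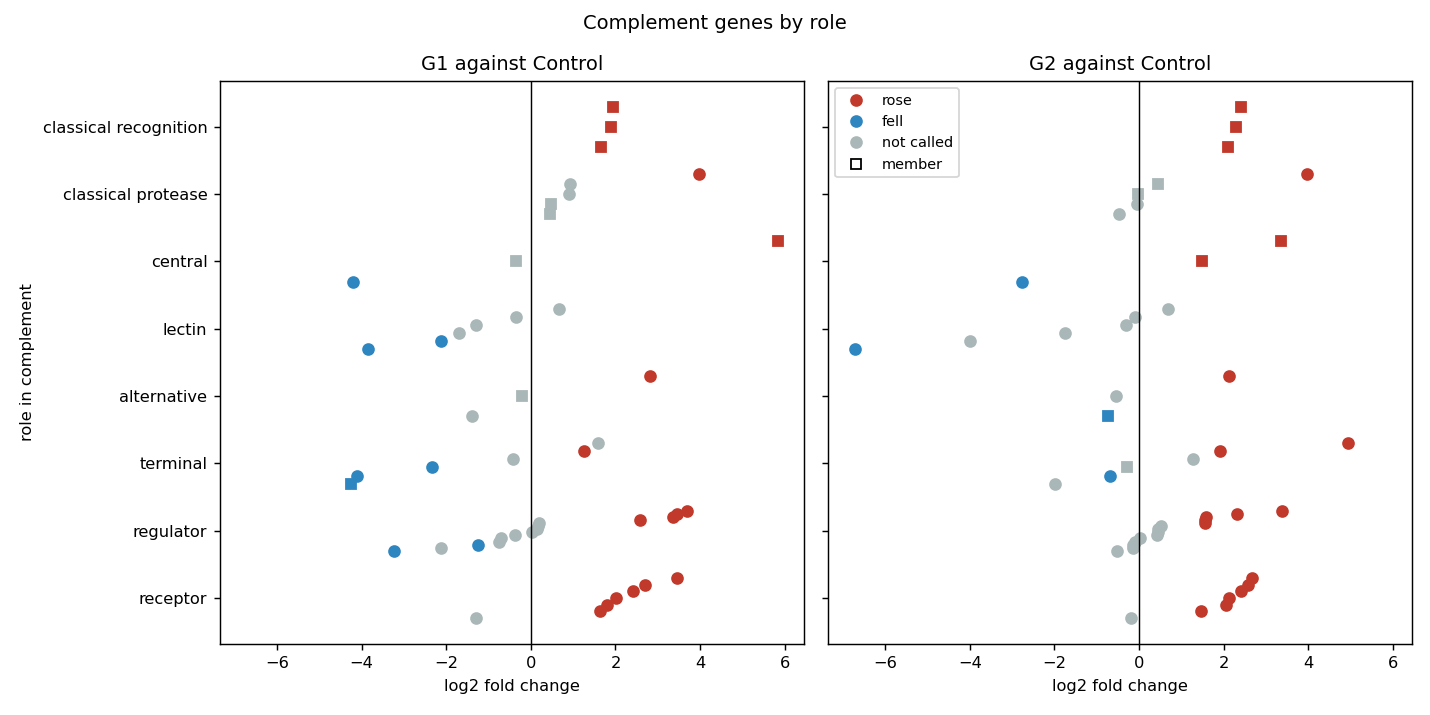
Log2 fold change of each tested complement gene, by role, in G1 against Control (left) and G2 against Control (right); colour shows genes that rose, fell or were not called, and squares frame the 9 members. In each panel 6 of 7 receptor genes rose against Control, where 19.5% of all genes rose in G1 and 12.7% in G2.

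Of 14 regulator genes tested against Control, G1 had 4 that rose and 2 that fell, near the 37.3% of all genes called, and G2 had 5 that rose and 0 that fell, where 12.7% of all genes rose. C4bp, counted among those that rose with each allele, passed the filter through the risk-allele libraries. Serping1 encodes the C1 inhibitor, which removes C1r and C1s from the C1 complex. It was at 114 and 96 CPM in G1, 284 and 278 in G2, 76.1, 87.1 and 105 in wild type (single mutant), and 114, 75.3 and 96.8 in Control. Serping1 rose in G2 by 1.56 ± 0.19 and was not called in G1 at 0.14 ± 0.19. It was lower in G1 than in G2, with a log2 difference of -1.42 ± 0.21 and an edgeR adjusted p of 0.0122. The summed level of 10 fibroblast markers, carried mostly by collagens, was 813 and 590.3 CPM in G1, 1849 and 1393 in G2, and 262 to 424 in the other 6 libraries. In G1 the sum lay above Control, where Serping1 overlapped with it, and 2 of the 10, Dcn and Lum, fell in G1, by 0.80 and 1.03 on the log2 scale. Their part in this result was not tested.

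Clu and Cfi rose with both alleles. Clu, which encodes clusterin, an inhibitor of the attack complex, was at 1288 and 2076 CPM in G1, 912 and 759 in G2, 187 to 297 in wild type (single mutant), and 156 to 431 in Control. Its log2 fold change was 2.57 ± 0.39 in G1 and 1.56 ± 0.39 in G2. Cfi, which encodes the protease factor I that inactivates C3b, was at 31.6 and 28.3 CPM in G1, 32.7 and 23.5 in G2, 0.986 to 3.97 in wild type (single mutant), and 0.796 to 4.13 in Control. It rose by 3.47 ± 0.63 in G1 and 3.37 ± 0.63 in G2.

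Of 7 receptor genes tested, 6 rose in each allele against Control, and the exception was Cr2, at -1.31 in G1 and -0.19 in G2. Itgam, a chain of complement receptor 3 on myeloid cells, was at 20.7 and 22.6 CPM in G1, 13.8 and 9.79 in G2, 1.33 to 2.45 in wild type (single mutant), and 1.16 to 2.57 in Control. C3ar1, the receptor of the fragment C3a, was at 12.7 and 10.7 CPM in G1, 14.2 and 8.57 in G2, 0.95 to 2.08 in wild type (single mutant), and 0.756 to 2.46 in Control. Both genes were higher in all 4 risk-allele libraries than in any of the other 6. C5ar1, the main receptor of C5a, rose by 2.01 ± 0.35 in G1 and 2.12 ± 0.35 in G2, and C5ar2, the second C5a receptor, by 1.80 ± 0.44 in G1 and 2.05 ± 0.44 in G2. Vsig4, a receptor of resident macrophages that binds C3b, was too low to be tested, with 0 counts in G2. Neutrophil markers were low, with a summed level of 4.12 and 6.27 CPM in G1, 5.72 and 4.26 in G2, 0.992 to 1.67 in wild type (single mutant) and 1.04 to 2.35 in Control. Of 7 on that list only 3 had enough reads to be tested, and 3 rose in G1 and 1 in G2. S100a8 and S100a9 had at most 10 and 14 counts outside G1 and G2. They passed the filter through the risk-allele libraries, so these neutrophil calls are no independent support. Of 8 lymphocyte markers 3 rose in G1 and 4 in G2, where 19.5% of all genes rose in G1 and 12.7% in G2. As for C1q, the part of macrophage and other leukocyte markers in the receptor values was not tested.

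Tested directly, G1 against G2 called 2 of 9 members, C3 higher and C8a lower in G1, where 6.72% of all genes were called (2.88% higher and 3.84% lower). Both G1 libraries lay above both G2 libraries for 3 members and below for 2 (26.7% of all genes above, 29.2% below). In the wider list 5 of 38 genes were lower in G1 and 0 were higher. Those lower included Hc, C8g, Serping1 and Susd4, the last named after its values were seen, at -1.16. Members included, 7 complement genes were called, against 1 without G1 replicate 1, 1 without G1 replicate 2 and 4 without G2 replicate 2. C4b was 1.85 ± 0.48 lower in G1 on the log2 scale, with an edgeR adjusted p of 0.0537 that ran from 0.00184 to 0.253 over 16 alternatives, 6 of which called it. Cfb had a log2 value of 0.52 ± 0.18 with an adjusted p of 0.114 in edgeR. Genes called in this comparison numbered 1198, and 84 without G1 replicate 1, 22 without G1 replicate 2 and 191 without G2 replicate 2.

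Compared per kilobase of exon, the order of the members' mean levels differed between groups. In G1 the order was C3 (552 ± 18.7 CPM per kilobase, SD, n = 2), C1qa (84.8 ± 1.21), C1qb (74.6 ± 17.4), C1qc (35.9 ± 2.82), Cfb (16.1 ± 2.09), C1s1 (6.96 ± 0.545), C1ra (6.37 ± 0.0213), C4b (3.27 ± 0.606) and C8a (0.423 ± 0.157). Of these neighbours, C1qa and C1qb lay within each other's spread. In G2, C1qa (116 ± 49 CPM per kilobase, SD, n = 2), C1qb (104 ± 23.9) and C3 (99 ± 43.7) came first and did not differ beyond their spread. In wild type (single mutant), Cfb (16.9 ± 1.54 CPM per kilobase, SD, n = 3) and C1qa (14.9 ± 4.24) came first, and C8a (9.84 ± 0.865) and C3 (8.88 ± 1.53) lay within each other's spread. In Control, C1qa (26.9 ± 11 CPM per kilobase, SD, n = 3), C1qb (19.5 ± 8.61) and Cfb (18.6 ± 2) lay within each other's spread, as did C1qc (9.67 ± 3.85), C3 (9.65 ± 2.38) and C8a (8.03 ± 2.23). The place of Cfb, C4b, C1ra and C1s1 in these orders is uncertain for the sequence they share with other genes.

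The genes whose log2 CPM, centred on its mean, ran closest to that of a member over the 10 libraries were sought among 14310 genes that averaged 1 CPM or more. For C3 they were Aoc1, Cd44 and Spp1, with root mean square differences of 0.56, 0.56 and 0.58 on the log2 scale, against a median of 2.45 over all candidates. Aoc1, a diamine oxidase gene, was at 322 and 325 CPM in G1, 213 and 122 in G2, 6.37 to 9.13 in wild type (single mutant), and 5.98 to 8.95 in Control. For C1qa they were Ltb, Mpeg1 and Lrrc25, at 0.23, 0.23 and 0.25 against a median of 1.28. For C8a they were Ctnna2, Ces1f and Inmt, at 0.41, 0.41 and 0.45 against a median of 1.77. Inmt, a methyltransferase gene, was at 93.8 and 25.3 CPM in G1, 524 and 382 in G2, 696 to 1066 in wild type (single mutant), and 620.2 to 1005 in Control. Cfb, which varied little, was closest to Mettl1, BC025446 and Gkap1, at 0.14, 0.15 and 0.15 against a median of 0.44.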

How the data were processed

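Poly(A) RNA of mouse kidney was sequenced as single-end reads, per the labels. The submitters' processing notes list HTSeq 0.6.1 and STAR 2.4.1d on GRCm38, beside Trim Galore, FastQC and CASAVA 1.8.2. Their settings, annotation release and strand, not given in the sources used here, bear on overlapping genes and copies. The deposited values are raw counts per gene, 1 table per library, not normalized by the authors.

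Symbols and coordinates came from GENCODE M21, which matched 46005 of 46517 identifiers. Counts went into 1 edgeR 4.0.16 quasi-likelihood fit (R 4.3.3) with a mean per group over 10 libraries, TMM scaling and filterByExpr at a minimum count of 10, which 17823 genes passed. The common biological coefficient of variation was 0.249. Adjustment was by Benjamini-Hochberg over all genes tested in each of 6 comparisons. The fit was tested on simulated data. The lowest chi-square per gene between 2 libraries was 26.2 over 45 pairs, so none was a repeat. The 10 totals make 3 counts, the floor, worth 0.0862 to 0.109 CPM, and intervals and floors cover counting error only.

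The members, the wider list (55 genes), 86 markers in 8 lists and the motifs were chosen with earlier results of these data known. The members are always named. Of the wider list, up to 4 called genes with the lowest p are named in each role, plus copies of members, and 1 gene is not reported here. Of marker lists the sums are given, and for C3, C1qa, Cfb and C8a the 3 nearest genes. Promoters came from RefSeq (GRCm38.p6), which matched 6 of 9 members, and 5 motifs were searched on both strands. Alternatives were library totals alone, RLE size factors, no filter, DESeq2 1.42.0, limma-voom (limma 3.58.1), only the groups compared, and leaving out each of 10 libraries. Tables and figures used Python 3.11.15, pandas 2.3.3, scipy 1.17.1 and matplotlib 3.10.9.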

Additional observations from a re-analysis of the deposited data

Results flagged for a closer look

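Among the members, 2 met the criterion for a closer look, because the effects of the alleles differed in a direct test of G1 against G2. For C3 the log2 difference was 2.48 ± 0.34 (adjusted p = 0.0106 in edgeR's quasi-likelihood test), with both G1 libraries above both G2 libraries. For C8a it was -3.97 ± 0.32 (adjusted p = 0.00286 in the same edgeR test), with both G1 libraries below both G2 libraries. Each allele had 2 libraries. Groups of 2 and 3 libraries were too small for a search for single outlying values.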

How the results depend on the processing

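Of the member fold changes recomputed under the 6 other settings, 305 kept their direction and their side of the threshold, 2 lost a call, 10 gained one and 7 changed sign. The sign changes were Cfb in G1 against Control (0.0795) and C1ra in G2 against Control (0.220), both with library totals alone, and C1s1 in G1 against G2, near 0 throughout: 0.0309 with library totals alone, 0.0389 with RLE size factors, 0.0347 with no filter, 0.0396 with DESeq2 and 0.0125 with only the groups compared. The lost calls were C4b in G2 against Control with only the groups compared and Cfb for both alleles against Control (-0.21) with library totals alone. The cause was not tested. With DESeq2, 4 members were called in G1 against G2, against 2, and 16 genes of the whole complement list, against 7 (11 with only the groups compared). Without G1 replicate 2 that list had 15 genes called in G1 against Control, against 25, and without G2 replicate 1 it had 15 in G2 against Control, against 24.

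Leaving out 1 library gave 5 to 6 members called in G1 against Control, 5 to 6 in G2 against Control, 5 to 7 for both alleles against Control, 5 to 8 against wild type (single mutant), 0 in wild type (single mutant) against Control and 1 to 3 in G1 against G2. Signs changed in C4b in G1 against Control (-0.67 to 0.19), C1ra in G2 against Control (-0.0997 to 0.0915), C3 in wild type (single mutant) against Control (-0.31 to 0.0292), and in G1 against G2 in C1qa (-0.79 to 0.14), C1qc (-0.62 to 0.0173) and C1s1 (-0.12 to 0.26). Cfb for both alleles against Control lost its call without G1 replicate 2, G2 replicate 2 or Control replicate 1.

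With library totals alone, 5687 genes were higher and 1768 lower in G1 against Control (3472 and 3184 with TMM), 4218 and 727 in G2 (2264 and 1579), 6037 and 1600 for both alleles against Control (3441 and 3212), 6226 and 1710 against wild type (single mutant) (3680 and 3440), and 597 and 576 in G1 against G2 (514 and 684). The percentage of genes called with no filter was 19.5 in G1 against Control, 11.2 in G2, 19.3 for both alleles against Control, 20.9 against wild type (single mutant), 0.0127 in wild type (single mutant) against Control and 4.34 in G1 against G2. In G2 against Control 2510 genes were called with only the groups compared (3843 in the fit of all groups), and in G1 against G2 2499 were called by DESeq2 and 799 with only the groups compared (1198).

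No paired analysis was possible because the labels give no replicate numbers, and those used here only name the libraries of a group in the order of deposit. With 2 libraries per allele, G1 against G2 is the least certain comparison here, and C4b, C4a, C1ra, C1rb, C1s1 and Cfb are limited by shared sequence.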

Other observations

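Endothelial and fibroblast markers also differed between the alleles, while 12 of 13 hepatocyte markers were not called in the direct test. Of 8 endothelial markers, 6 fell in G1 against Control and 0 were called in G2, and in the direct test of G1 against G2 5 were lower in G1 (17.9% of all genes fell in G1 against Control, 21.6% were called in G2 and 3.84% were lower in G1 than in G2). Their summed level was 282 and 312 CPM in G1, 532 and 782 in G2, 375 to 696 in wild type (single mutant) and 510.1 to 557 in Control. Of 13 hepatocyte markers tested, 1 rose and 4 fell in G1 against Control, where 37.3% of all genes were called, and 0 were called in G2. Tested directly, G1 against G2, 1 was lower in G1 and 12 were not called. Of the 4 that fell, Cyp2e1 held at least 2443 counts in every library, where Alb held 21 to 649 outside wild type (single mutant) replicate 1. Of 10 fibroblast markers, 3 rose and 2 fell in G1 and 6 rose in G2, where 19.5% of all genes rose in G1 and 12.7% in G2. In the direct test 5 of these 10 were lower in G1 than in G2. C4bp, which encodes a binding protein of C4b, rose in both alleles, by 3.35 in G1 and 2.32 in G2 on the log2 scale, from low levels. It was at 2.15 and 2.47 CPM in G1, 1.2 and 1.05 in G2, 0.273 to 1.27 in wild type (single mutant), and 0.104 to 0.29 in Control. Its counts were 37, 8 and 8 in wild type (single mutant) and 3, 8 and 7 in Control. C4bp passed the filter through the risk-allele libraries, so its calls are no independent support. Cpn1, a subunit of carboxypeptidase N, which inactivates C3a and C5a, was at 129.8 and 122 CPM in G1, 8.22 and 5.41 in G2, 1.32 to 32.7 in wild type (single mutant), and 3.78 to 18.7 in Control. C4bp and Cpn1 were picked after their values were seen.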
